A study of Mus musculus with 6 samples.

Results

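The genes examined were 33 that encode lysosomal proteins outside the breakdown of glycolipids: proteases, glycosidases, lipid-handling proteins, membrane proteins, subunits of the proton pump and 2 regulators. They were taken by gene symbol from a list drawn up with earlier results of these data known, and 32 of the 33 had a named probe set among the 16331 gene probe sets of the table. The expression of Cd63 was not analysed here, and that gene enters only the promoter counts. The samples were 3 livers labelled Ugcg-deficient (KO, arrays 427, 429 and 431) and 3 labelled wildtype (WT, arrays 426, 428 and 430), all mouse. Biotin-labelled cRNA was hybridised to Affymetrix arrays, and each value is a log2 expression level. The labels give no allele, Cre driver, strain, sex or age, and they do not say which liver cells lost Ugcg or whether each array came from its own animal. What the p-values weigh is thus the variation among these 6 arrays, part of which may be technical.

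The lysosome is the acidic compartment in which cells digest proteins, glycans, glycogen and lipids delivered by endocytosis and autophagy. A proton pump, the V-ATPase, keeps it acidic, soluble hydrolases do the digestion, and glycosylated membrane proteins line it. The transcription factor TFEB raises many lysosomal genes together through a promoter element known as CLEAR, and the mTORC1 kinase keeps TFEB out of the nucleus when nutrients are plentiful. Ugcg makes glucosylceramide, the first glycosphingolipid, and the lysosome is where such lipids are taken apart again. Hepatocytes and the liver's macrophages, the Kupffer cells, both hold many lysosomes.

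Ugcg itself had values of 7.12, 6.70 and 6.68 on KO arrays 427, 429 and 431, against 6.81, 6.85 and 6.87 on WT arrays 426, 428 and 430. KO 427 lay above all WT arrays and the other KO arrays below them (difference -0.00879, SE 0.117, limma adjusted p = 0.998). Where its probes lie relative to the deleted part of the gene is not stated, so these values are no check of the labels. Array medians lay between 6.79 and 6.81. The 9 measured hepatocyte markers, which include albumin, had list means of 13.5 to 13.6 on the KO arrays and 13.5 on the WT arrays. Their single differences, KO minus WT, ran from -0.0537 to 0.430. KO and WT values did not overlap for 2 of the 9, 1 higher and 1 lower, against 9.57% of all probe sets. All 9 measured exocrine pancreas markers were highest on WT 430, whose list mean was 9.56, against 6.61 to 6.84 on the KO arrays and 6.73 and 6.75 on the other WT arrays. The 15 Kupffer cell and macrophage markers had list means of 7.99 to 8.56 on the KO arrays and 8.31 to 8.44 on the WT arrays; single values lay between 6.48 and 10.7, 12 of 15 were lowest on KO 431 and 10 of 15 were highest on KO 429. The 7 cholangiocyte markers reached a list mean of 6.59 on KO 429, against 6.25 to 6.32 on the other arrays, and the 9 adipose and muscle markers had list means of 6.78, 6.38 and 6.60 on KO 427, 429 and 431, against 6.29 to 6.38 on the WT arrays.

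The comparison asked whether livers deficient in Ugcg carried different levels of lysosomal transcripts. None of the 32 measured genes passed the test (limma, adjusted p under 0.05 over all probe sets; 0.951 to 0.996 for these genes), and 0.0245% of all probe sets passed, 0.0122% on the higher and 0.0122% on the lower side. At an adjusted p under 0.1 no member passed either, where 0.049% of all probe sets did, 0.0306% higher and 0.0184% lower. The palmitoyl-protein thioesterase gene Ppt1 was the 1 member at an unadjusted p under 0.05, where the background is 4.99% of all probe sets, 2.64% on the higher and 2.35% on the lower side. Of the 32 genes, 18 had a difference above 0 and 14 below 0 (52.5% of all probe sets were above 0 and 47.5% below). The median difference, KO minus WT, was 0.026 on the log2 scale, and over all probe sets it was 0.00586. The median size of a difference without its sign was 0.0602 for these genes and 0.0625 for all probe sets. KO and WT values did not overlap for 2 of the 32, Ppt1 on the higher and the membrane protein gene Lamp2 on the lower side, against 9.57% of all probe sets in either direction, 5.1% higher and 4.47% lower.

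The intervals say how large a change these arrays could have missed. The 95% interval of the difference lay within 1.5-fold in either direction for all 32 genes, as it did for 97.1% of all probe sets. The lowest lower bound was -0.54, for the cholesterol exporter gene Npc1, and the highest upper bound 0.52, for Ppt1. The median standard error was 0.0853. Without 1 array in turn the median difference ran from -0.0137 without WT 430 to 0.0522 without WT 428. It was 0.0435 without KO 431, 0.00757 without KO 427, 0.00488 without WT 426 and -0.00366 without KO 429, and -0.0247 without WT 430 and KO 427 together. In bulk liver, fewer cells of a type and less RNA per cell cannot be told apart.

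**Figure D1:**
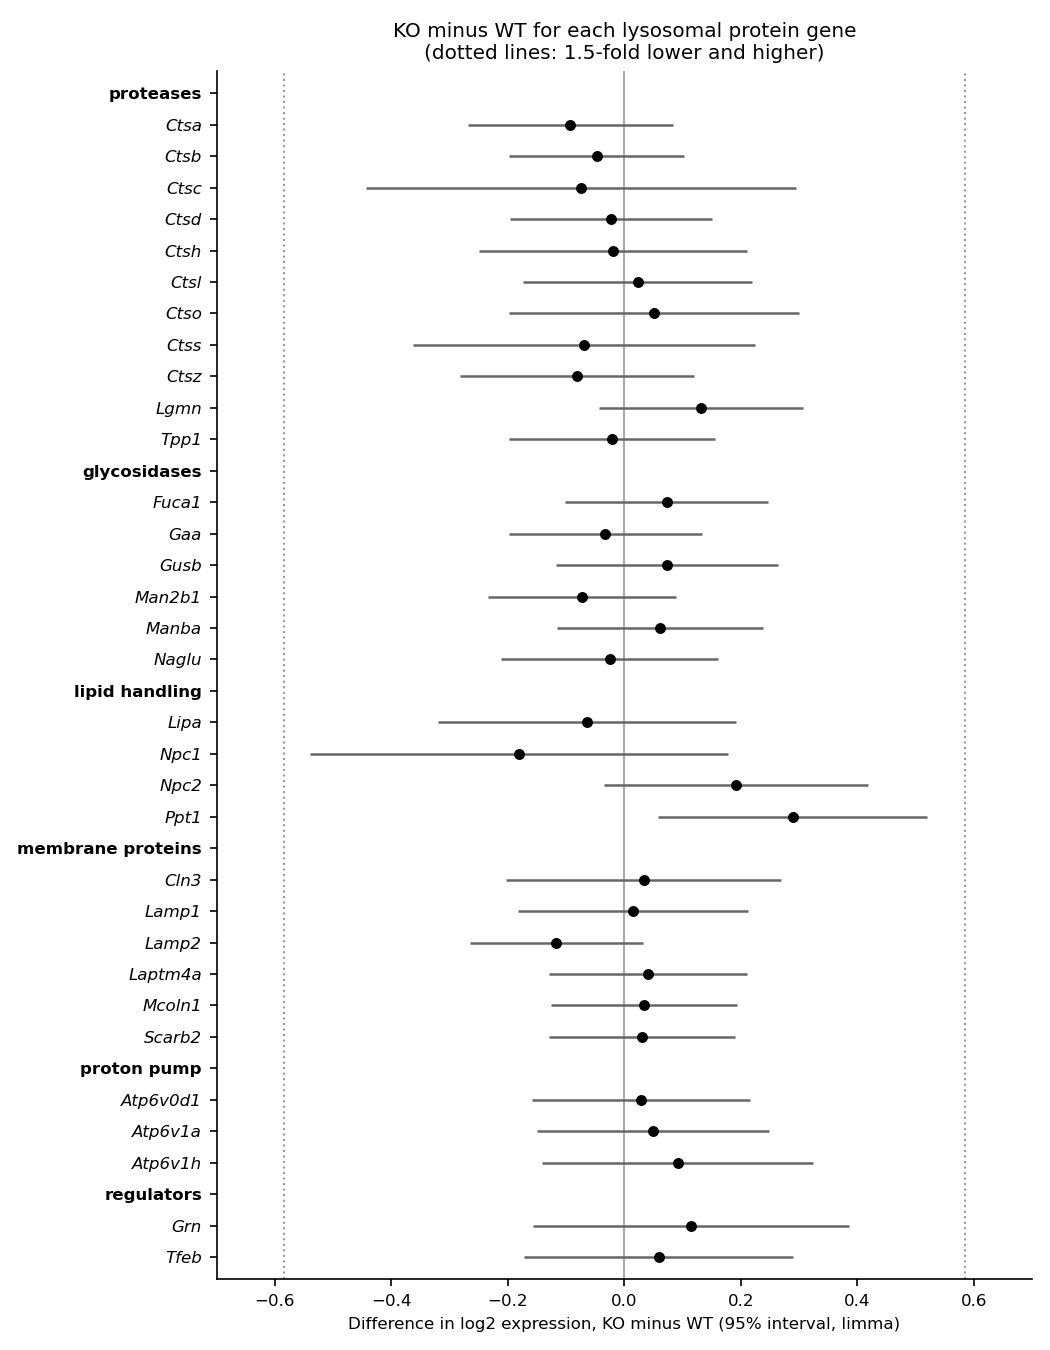
Difference in log2 expression, KO minus WT, for the 32 measured lysosomal protein genes by role. Points are limma estimates from 3 KO and 3 WT arrays, bars are 95% intervals and dotted lines mark 1.5-fold; every bar stays between the lines, and that of Ppt1 is the 1 bar that does not reach 0.

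The promoters show which of these genes carry the core of the CLEAR element, which was not a criterion when they were taken by symbol. Many lysosomal genes are known to carry that element, so a share above that of other genes is no independent result. Windows from 250 bases before to 50 after the gene start were taken from RefSeq (GRCm38.p6) for 29 of the 33 genes, 34 windows in all, and both strands were searched for CACGTG, the E-box that forms the core of CLEAR and is its own reverse complement. It stood in a window of 11 of the 29 genes (37.9%), against 10.5% of 12693 genes that have a probe set and 8.09% of all 27025 genes in the table. Cd63, whose expression was not analysed, is among the 29 and held no match. The longer CACGTGA, which contains that core and was sought on either strand, stood in 10 of the 29 (34.5%), against 6% of genes with a probe set. Within the 150 bases nearest the start, 7 of the 29 (24.1%) held the core, against 6.55% of genes with a probe set. These are counts of letters in a fixed window and do not show binding.

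Lamp1, which encodes a major glycoprotein of the lysosomal membrane, had the most matches, 4, all within the last 61 bases before its start. Its 250 bases before the start are printed beside those of Ppt1, the member with the largest difference, which held no match; CACGTG is in capitals. The Lamp1 stretch had 59.6% G and C, and the Ppt1 stretch 46.4%.
Lamp1, chr8:13158911-13159160, plus strand: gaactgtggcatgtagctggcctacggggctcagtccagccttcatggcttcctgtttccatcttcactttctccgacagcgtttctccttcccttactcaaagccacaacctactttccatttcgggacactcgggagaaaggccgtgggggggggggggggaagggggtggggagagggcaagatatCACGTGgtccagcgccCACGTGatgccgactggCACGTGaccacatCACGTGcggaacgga
Ppt1, chr4:122835977-122836226, plus strand: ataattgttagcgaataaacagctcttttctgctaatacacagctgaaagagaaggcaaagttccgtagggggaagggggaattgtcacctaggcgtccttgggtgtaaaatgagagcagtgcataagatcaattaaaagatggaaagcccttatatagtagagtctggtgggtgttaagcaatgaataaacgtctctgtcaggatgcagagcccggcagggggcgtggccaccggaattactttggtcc

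The other 10 genes with a match are shown by the match nearest the start, with up to 12 bases on either side, read along the gene's strand with the core in capitals. They let the flanks be compared: 9 of these 10 genes extend the core to CACGTGA on 1 strand or the other, and the cathepsin L gene Ctsl does not.
Ctsa, chr2:164833766-164833795, plus strand, first base of the match at 6: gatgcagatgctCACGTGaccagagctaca
Ctsd, chr7:142387908-142387937, minus strand, first base of the match at -98: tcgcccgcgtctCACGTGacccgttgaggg
Ctsl, chr13:64370739-64370768, minus strand, first base of the match at -236: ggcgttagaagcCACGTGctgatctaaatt
Lgmn, chr12:102439124-102439153, minus strand, first base of the match at -49: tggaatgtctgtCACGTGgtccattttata
Gaa, chr11:119267811-119267840, plus strand, first base of the match at -140: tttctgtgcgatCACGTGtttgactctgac
Naglu, chr11:101070009-101070038, plus strand, first base of the match at -73: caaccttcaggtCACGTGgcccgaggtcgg
Cln3, chr7:126583340-126583369, minus strand, first base of the match at -121: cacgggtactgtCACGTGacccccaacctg
Mcoln1, chr8:3500462-3500491, plus strand, first base of the match at -45: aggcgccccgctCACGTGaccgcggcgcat
Atp6v0d1, chr8:105566050-105566079, minus strand, first base of the match at -3: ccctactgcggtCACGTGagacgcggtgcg
Atp6v1a, chr16:44139373-44139402, minus strand, first base of the match at -131: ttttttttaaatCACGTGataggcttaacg

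**Figure D2:**
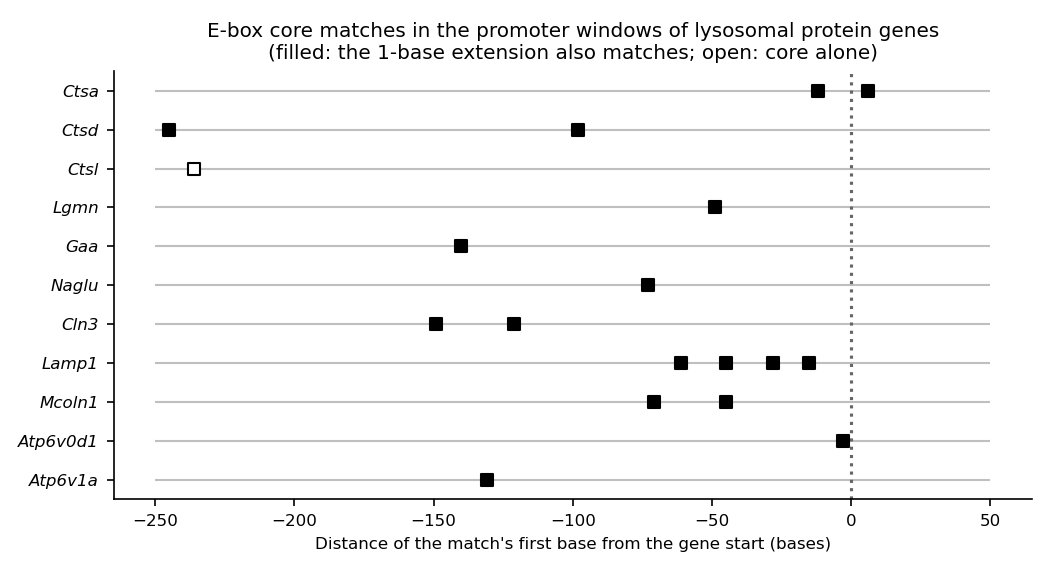
Positions of the E-box core in the promoter windows of the 11 lysosomal protein genes that hold it, in bases from the gene start. Each square is 1 match, filled where the 1-base extension also matches; Lamp1 has 4 matches before its start, and the Ctsl match at -236 is the 1 open square.

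The differences between KO and WT arrays are given for the genes with and without the core as a description, with no test between them. With the core, 7 of 11 differences were above 0, with a median of 0.0228 and a range from -0.09 to 0.13. Without it, 10 of 17 were above 0, with a median of 0.04 and a range from -0.12 to 0.29. The 4 measured genes with no window, Atp6v1h, Ctsb, Ctsh and Npc1, ran from -0.18 to 0.09.

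Among the 11 proteases, 3 differences were above 0 and 8 below, with a median of -0.0228, and none passed. Lgmn, the gene of the asparaginyl endopeptidase legumain, had 8.63, 8.71 and 8.50 on KO 427, 429 and 431, against 8.51, 8.49 and 8.43 on WT 426, 428 and 430. KO 427 and KO 429 lay above all WT arrays, and KO 431 lay among them (difference 0.13, SE 0.0774, limma adjusted p = 0.982). Ctsa, the gene of the serine carboxypeptidase cathepsin A that also shields beta-galactosidase and neuraminidase, had 8.07, 8.21 and 8.10 on the KO arrays, against 8.24, 8.29 and 8.13 on the WT arrays. KO 429 and WT 430 made the groups overlap (difference -0.09, SE 0.0773, limma adjusted p = 0.982). Ctsz, the gene of a cysteine carboxypeptidase, had 10.51, 10.43 and 10.47 on the KO arrays, against 10.38, 10.67 and 10.60 on the WT arrays. All 3 KO values lay between WT 426 and the other WT arrays (difference -0.08, SE 0.0885), and the difference was -0.17 without WT 426 and -0.0195 without WT 428.

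Ctsc and Ctss varied most among the proteases. Ctsc, the gene of the dipeptidyl peptidase cathepsin C that activates granule proteases of immune cells, had 10.19, 10.20 and 9.68 on KO 427, 429 and 431, against 10.38, 9.97 and 9.94 on the WT arrays, a range of 0.70. KO 431 was lowest and WT 426 highest, and the difference of -0.07 became 0.10 without KO 431 and 0.07 without WT 426. Ctss, the gene of cathepsin S, a protease of antigen-presenting cells, had 10.20, 10.56 and 10.01 on the KO arrays, against 10.29, 10.42 and 10.26 on the WT arrays. Its lowest and highest values were both KO arrays, 431 and 429, and the difference of -0.07 became 0.05 without KO 431. KO 431 also had the lowest and KO 429 the highest list mean of the macrophage markers, 7.99 and 8.56; the part of macrophage RNA in these values was not tested.

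The other proteases lay close to 0. The differences were -0.05 for Ctsb and -0.0195 for Ctsh, which encode cysteine proteases, 0.05 for Ctso and 0.0228 for Ctsl. The aspartic protease gene Ctsd differed by -0.0228 and the tripeptidyl peptidase gene Tpp1 by -0.0208. The ranges over the 6 arrays ran from 0.12 for Ctsb to 0.36 for Ctsh. Without 1 array or another the sign turned for Ctsd, Ctsh, Ctsl, Ctso and Tpp1, and Ctsb stayed below 0 (-0.0677 to -0.0247).

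The 6 glycosidases, which strip sugars from glycoproteins, glycosaminoglycans and glycogen, had 3 differences above and 3 below 0, with a median of 0.0181. Man2b1, the lysosomal alpha-mannosidase gene, had 10.98, 10.95 and 10.89 on the KO arrays, against 10.93, 11.04 and 11.07 on the WT arrays. WT 426 lay among the KO arrays (difference -0.07, SE 0.0711, limma adjusted p = 0.984). Fuca1, the alpha-fucosidase gene, had 9.20, 9.13 and 9.01 on the KO arrays, against 9.09, 9.05 and 8.98 on the WT arrays. The 2 highest values were KO 427 and KO 429, and KO 431 lay within the WT range (difference 0.07, SE 0.0768). Gusb, the beta-glucuronidase gene, had 8.12, 7.94 and 7.95 on the KO arrays, against 7.90, 8.04 and 7.85 on the WT arrays. Only KO 427 stood above every WT array, and without it the difference of 0.07 was 0.0146. Manba, the beta-mannosidase gene, differed by 0.06, Gaa, whose enzyme degrades glycogen, by -0.03, and Naglu, whose enzyme acts on heparan sulfate, by -0.0251.

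The 4 genes of lipid handling held the 3 differences furthest from 0 of all 32. Their median standard error was also larger, 0.107 against 0.0853 for all 32, and 2 of the 4 differences were above 0 and 2 below. Ppt1, whose enzyme removes palmitate from proteins, had 8.50, 8.46 and 8.52 on KO 427, 429 and 431, against 8.14, 8.43 and 8.04 on WT 426, 428 and 430. The KO arrays lay close together and all above the WT arrays, and WT 428 came nearest to them. The mean was 8.49 ± 0.03 on the KO arrays and 8.20 ± 0.20 on the WT arrays (SD, n = 3 each), a 1.22-fold difference (0.29, SE 0.102, 95% interval 0.06 to 0.52). It did not pass (limma adjusted p = 0.951), and without 1 array in turn the difference ran from 0.21 without WT 430 to 0.40 without WT 428.

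Npc2 and Npc1, the soluble and the membrane-bound protein that together pass cholesterol out of the lysosome, had differences of opposite sign. Npc2 had 9.83, 9.93 and 9.84 on the KO arrays, against 9.73, 9.83 and 9.46 on the WT arrays. WT 428 just exceeded KO 427 and the other WT arrays lay lower (difference 0.19, SE 0.0999, limma adjusted p = 0.982). The Npc2 difference was 0.0866 without WT 430 and 0.27 without WT 428. Npc1 had 8.23, 8.62 and 8.47 on the KO arrays, against 8.71, 8.88 and 8.27 on the WT arrays. KO 427 and WT 430 were the lowest and WT 428 the highest, so that the spread within each group (SD 0.20 on the KO and 0.32 on the WT arrays) exceeded the difference of -0.18 (SE 0.158, limma adjusted p = 0.983). That difference was -0.36 without WT 430 and -0.0505 without WT 428. Lipa, the acid lipase gene for cholesteryl esters and triglycerides, differed by -0.06, and it too was lowest on KO 427 (9.45) and WT 430 (9.49).

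**Figure D3:**
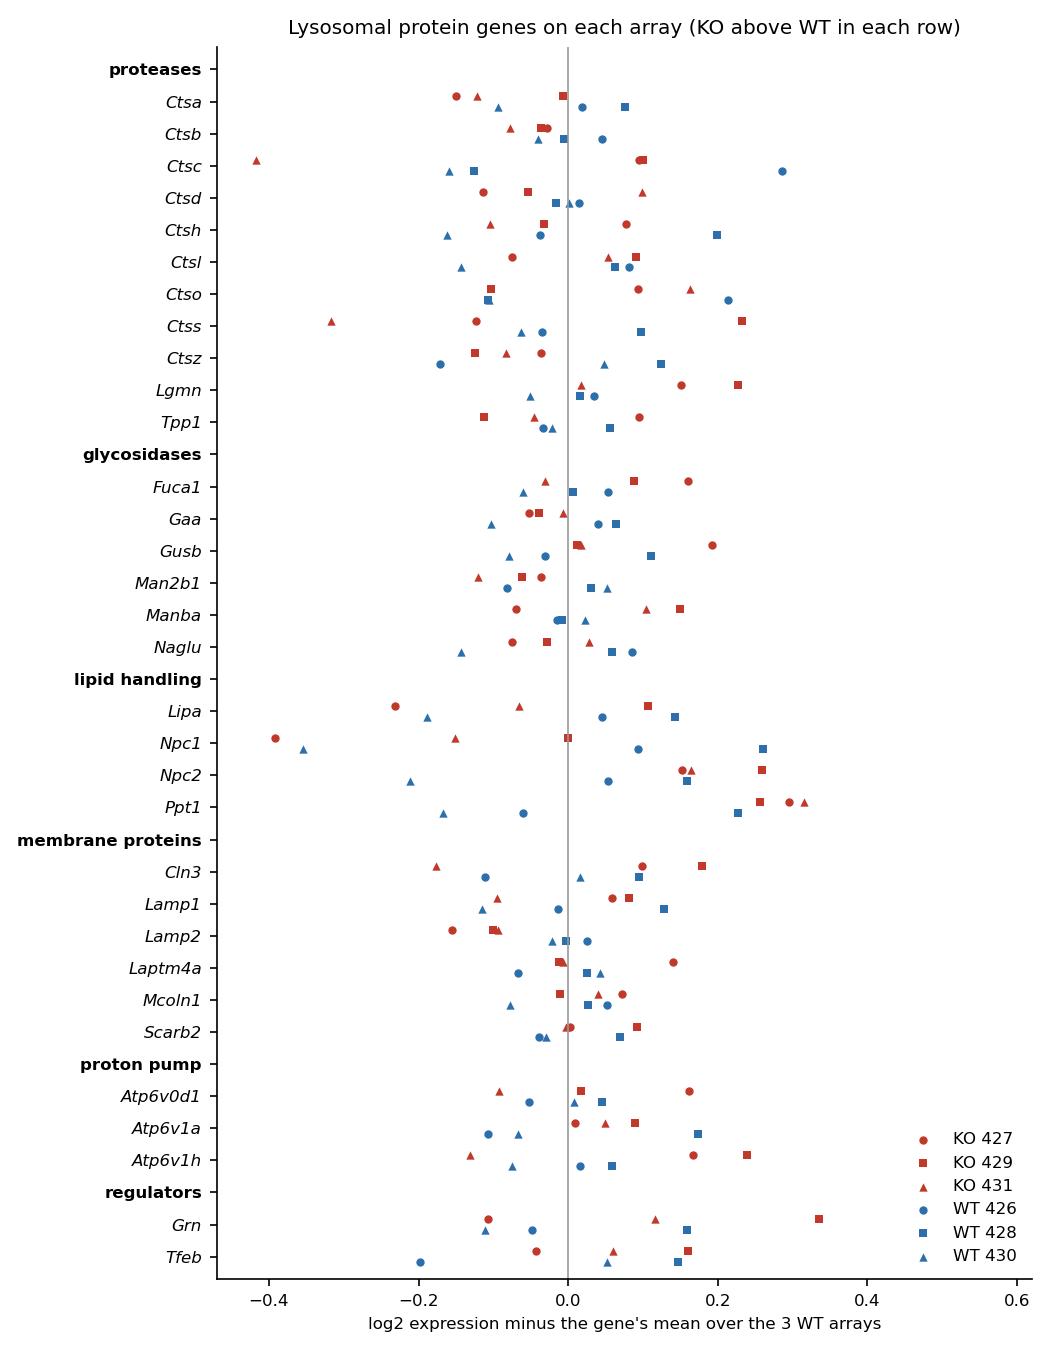
Log2 expression of each measured lysosomal protein gene on every array, as the difference from that gene's mean over the 3 WT arrays, with KO points (red) above WT points (blue) in each row. Red and blue points mix in all rows except Ppt1, where the 3 KO points lie to the right, and Lamp2, where they lie to the left.

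Of the 6 membrane protein genes, 5 had differences above 0 and Lamp2 had one below. Lamp2, which encodes a membrane glycoprotein that also serves autophagy, had 11.98, 12.04 and 12.04 on KO 427, 429 and 431, against 12.16, 12.13 and 12.11 on the WT arrays. All KO values lay below all WT values, within a range of 0.18. The mean was 12.02 ± 0.03 on the KO arrays and 12.14 ± 0.02 on the WT arrays (SD, n = 3 each), and the difference of -0.12 did not pass (SE 0.0652, 95% interval -0.26 to 0.03, limma adjusted p = 0.982). It stayed between -0.128 and -0.0973 without 1 array in turn.

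Laptm4a, which encodes a membrane protein of endosomes and lysosomes, had 11.86, 11.70 and 11.71 on the KO arrays, against 11.65, 11.74 and 11.76 on the WT arrays. Mcoln1, the gene of the lysosomal calcium channel mucolipin, had 7.91, 7.82 and 7.87 on the KO arrays, against 7.89, 7.86 and 7.76 on the WT arrays. Cln3, whose loss causes a juvenile form of Batten disease in people, had 7.04, 7.12 and 6.76 on the KO arrays, against 6.83, 7.03 and 6.95 on the WT arrays. The groups overlapped for all 3 of these genes, and the differences were 0.04, 0.03 and 0.03 in that order. Scarb2, which encodes the receptor that carries beta-glucocerebrosidase to the lysosome, differed by 0.03 (SE 0.0705), and Lamp1 by 0.0150 (SE 0.0873).

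The 3 measured subunits of the proton pump all had differences above 0, from 0.03 to 0.09, and none passed. Atp6v1h, a regulatory subunit of the soluble part, had 9.61, 9.69 and 9.32 on the KO arrays, against 9.46, 9.51 and 9.37 on the WT arrays. KO 431 was the lowest and KO 429 the highest of all (SE 0.103), and the difference of 0.09 was 0.0177 without KO 429 and 0.20 without KO 431. Atp6v1a, the subunit that hydrolyses ATP, had 8.74, 8.82 and 8.78 on the KO arrays, against 8.62, 8.90 and 8.66 on the WT arrays, so the KO values lay inside the WT range. Atp6v0d1, a subunit of the membrane part, had 10.03, 9.88 and 9.78 on the KO arrays, against 9.81, 9.91 and 9.88 on the WT arrays, so the WT values lay inside the KO range. Of 12 other measured subunits and accessory proteins of the pump, 2 had differences above 0 and 10 below, with a median of -0.05, and none passed. Atp6v1b2, a partner of Atp6v1a in the catalytic ring, had the smallest p of these, with 8.56, 8.57 and 8.50 on the KO arrays, against 8.72, 8.74 and 8.58 on the WT arrays. The KO values were the 3 lowest (difference -0.14, SE 0.0730, limma adjusted p = 0.982).

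The 2 regulators overlapped between the groups. Tfeb had 7.05, 7.25 and 7.15 on the KO arrays, against 6.90, 7.24 and 7.15 on the WT arrays. WT 426 was the lowest, and without it the difference of 0.06 was -0.04. Grn, the gene of progranulin, a secreted protein that supports lysosomal function, had 10.58, 11.03 and 10.81 on the KO arrays, against 10.64, 10.85 and 10.58 on the WT arrays. KO 429, the array with the highest macrophage list mean, was the highest, and the difference of 0.11 (SE 0.120) was 0.00456 without it. KO 431, the array with the lowest macrophage list mean, lay above KO 427, WT 426 and WT 430 for Grn. The part of macrophage RNA in the Grn values was not tested.

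Arrays of the same genotype differed in how many of these genes they held at the highest or lowest value. WT 430 had the lowest value for 12 of the 32 genes (37.5%), where it had the lowest value for 18.3% of all probe sets. KO 429 had the highest value for 10 (31.3%), against 19.1% of all probe sets. WT 428 lay above the gene's own mean over the 6 arrays for 26 genes (81.3%), against 51.6% of all probe sets, and WT 430 did so for 6 (18.8%), against 46.5%. The median deviation from that mean was 0.00212, 0.06 and -0.03 on KO 427, 429 and 431, and -0.0256, 0.07 and -0.09 on WT 426, 428 and 430. The distance between WT 428 and WT 430 thus exceeded the median difference between the groups. WT 430 is the array with the pancreatic transcripts, and their part in these values was not tested.

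**Figure D4:**
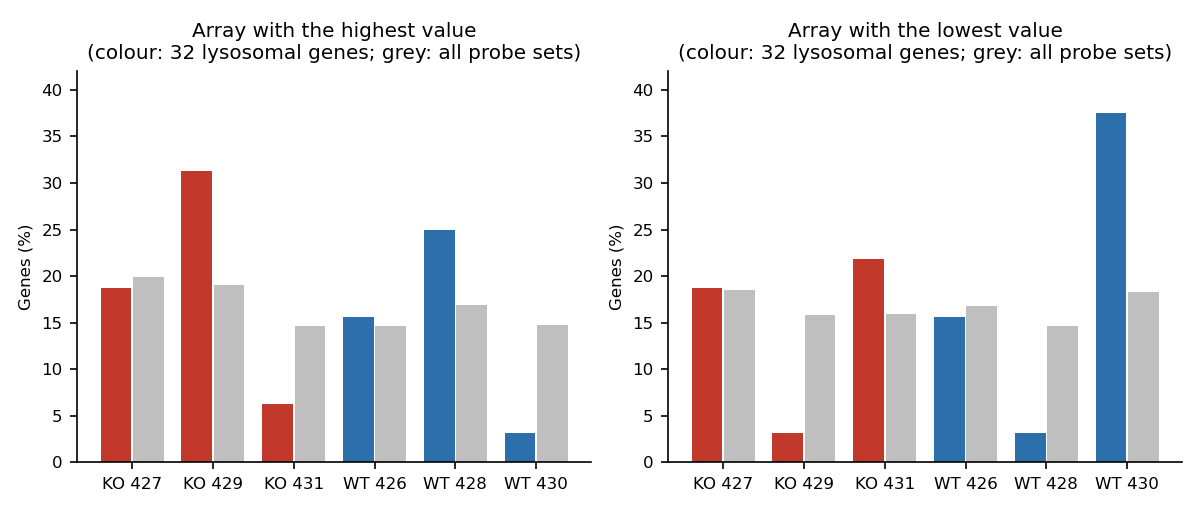
Share of genes, in percent, that had their highest value (left) or lowest value (right) on each array. Coloured bars are the 32 lysosomal protein genes (red KO, blue WT) and grey bars all 16331 probe sets; WT 430 holds the lowest value for 37.5% of the lysosomal genes, against 18.3% of all probe sets.

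Other genes of the pathway were taken from 6 lists, which together had 95 measured genes. None passed (limma, adjusted p under 0.05), 2 of 95 were at an unadjusted p under 0.05, a smaller share than the 4.99% of all probe sets, and 53 differences were below 0 and 42 above. The groups did not overlap for 7 of the 95, a smaller share than the 9.57% of all probe sets. All 7 were on the lower side, where 4.47% of all probe sets lay, and 0 were on the higher side, where 5.1% lay. The median difference over the 95 was -0.0244. It was -0.0267 for 19 genes listed as other soluble hydrolases, although 1 of them, Hgsnat, encodes a membrane-bound acetyltransferase. The median was -0.04 for 15 other membrane proteins and transporters and -0.00488 for 14 genes of delivery to the lysosome. It was 0.0278 for 18 genes of the TFEB family and mTORC1 control and 0.0026 for 17 autophagy genes.

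The 2 genes at an unadjusted p under 0.05 were Fnip1 and Flcn, a number that does not exceed the background. Folliculin and its binding protein Fnip1 form a complex on the lysosome that acts on the Rag GTPases and through them on TFEB. Fnip1 had 7.78, 7.80 and 7.87 on KO 427, 429 and 431, against 8.28, 8.28 and 8.09 on WT 426, 428 and 430. The KO arrays lay close together and all below the WT arrays. The mean was 7.82 ± 0.05 on the KO arrays and 8.22 ± 0.11 on the WT arrays (SD, n = 3 each), and the difference of -0.40 did not pass (SE 0.0787, 95% interval -0.58 to -0.22, limma adjusted p = 0.478).

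Flcn had 7.44, 7.39 and 7.25 on the KO arrays, against 7.65, 7.95 and 7.49 on the WT arrays. The groups did not overlap, and KO 427 and WT 430 came nearest to each other. The difference of -0.34 did not pass either (SE 0.117, 95% interval -0.60 to -0.07, limma adjusted p = 0.951), and it ran from -0.44 without WT 430 to -0.21 without WT 428.

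In the other lists the gene with the smallest p was named. This was Scpep1, a serine carboxypeptidase gene, among the hydrolases (-0.14), Tmem192 among the membrane proteins (-0.15), Gga3, an adaptor for sorting from the Golgi, among the delivery genes (0.20) and Atg16l1, which helps attach lipid to LC3 proteins, among the autophagy genes (0.19). Their limma adjusted p was 0.982 in each case. Without 1 array in turn the Gga3 difference ran from 0.083 without KO 427 to 0.318 without WT 430, and that of Atg16l1 from 0.0934 without KO 429 to 0.262 without WT 430. The remaining genes whose groups did not overlap, named after their values were seen, were the acid phosphatase gene Acp5 (-0.14) and the adaptor gene Gga1 (-0.09).

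**Figure D5:**
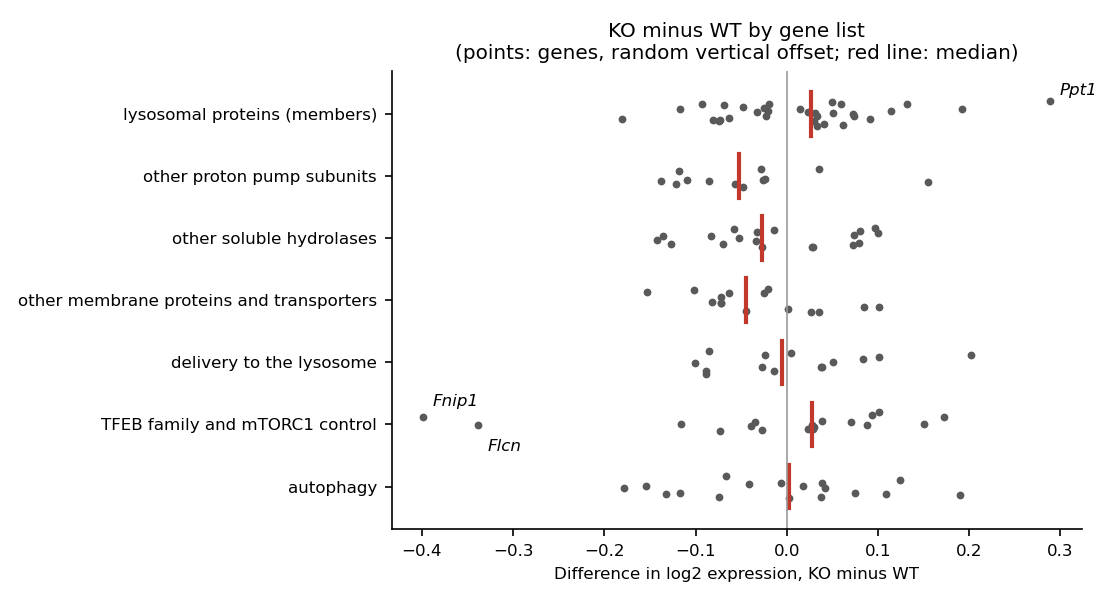
Difference in log2 expression, KO minus WT, for the 32 lysosomal protein genes and 6 lists of other lysosomal and autophagy genes. Each point is 1 gene and the red line the median of its list, from -0.05 to 0.03; Fnip1 at -0.40 and Flcn at -0.34 lie apart from the other genes, and Ppt1 at 0.29 is the highest.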

How the data were processed

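The authors deposited 1 table of log2 expression values for 6 arrays. The unit was read from its values, which run from 5.38 to 14.69; how they were background-corrected and normalized, and with what software, is stated neither there nor in the labels used here. Per the labels' protocols, the arrays were Affymetrix and the target biotin-labelled cRNA. Values were used as deposited. Of 16395 rows, 64 AFFX controls were left out. Each of the other 16331 is named by 1 Entrez gene number; the platform annotation gave 1 symbol for 15644, several for 0 and none for 687, and 15617 matched the RefSeq table of GRCm38.p6.

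Groups came from sample titles. KO minus WT was fitted over all 16331 probe sets with limma 3.58.1 (R 4.3.3; lmFit, eBayes, residual degrees of freedom 4, prior 4.85). Tests were two-sided, and p-values were adjusted by the Benjamini-Hochberg method over the whole table. The step was tested on simulated data. Groups overlap unless all KO values lie on 1 side of all WT values. Precision is limited by having 3 arrays a group. Figures used matplotlib 3.10.9.

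All members are described by role. Values on every array are given where the groups do not overlap or the unadjusted p is under 0.05, and for the up to 3 smallest p and the widest range in each role, beside Ctss. The members and lists were chosen with earlier results of these data known. The settings varied were median centring, quantile normalization, omission of the dimmest 40% of probe sets, an intensity trend with robust variance, array weights, an adjusted p under 0.1 and leaving out each array; omitting both WT 430 and KO 427 was an addition made with the data already seen.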

Additional observations from a re-analysis of the deposited data

How the results depend on the processing

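No lysosomal protein gene passed under any alternative (lowest limma adjusted p 0.615). Of 384 member differences over 12 alternatives, 348 kept their sign and 36 turned. The kept count is partly fixed in advance. Omitting dim probe sets and the intensity trend with robust variance leave every member's difference unchanged, so no sign could turn there. Median centring shifts every difference by the same amount. Lamp1, the member closest to 0, moved from 0.0150 to 0.0137, so no sign could turn under that setting either. It also counts Ctsl without WT 430 and KO 427 together and Naglu without KO 427, whose differences were practically 0. Of the 32 genes, 14 kept their sign throughout, with Ppt1 and Lamp2 among them. The KO and WT values of Ppt1 and of Lamp2 do not overlap, so leaving out or weighting arrays could not turn their sign. The cause of the turns was not tested. After quantile normalization Ctsl turned to -0.0188 and Lamp1 to -0.0035. Without WT 430 and KO 427 together the differences were 0.0234 for Ctsd, -0.0232 for Ctso, -0.0249 for Gusb, -0.000977 for Fuca1, -0.0645 for Lamp1, -0.0244 for Mcoln1 and -0.0332 for Atp6v0d1, and the autophagy median was -0.0566. Without 1 array in turn the differences ran from -0.0837 to 0.0228 for Ctsd, -0.161 to 0.0973 for Ctsc, -0.10 to 0.0799 for Ctsh, -0.0492 to 0.0719 for Ctsl, -0.00472 to 0.158 for Ctso, -0.22 to 0.0547 for Ctss and -0.0788 to 0.0247 for Tpp1. They ran from -0.0968 to 0.0174 for Naglu, -0.158 to 0.0202 for Lipa, -0.0423 to 0.0788 for Lamp1, -0.00944 to 0.0667 for Laptm4a, -0.0392 to 0.139 for Cln3, -0.00521 to 0.0592 for Mcoln1, -0.0371 to 0.0898 for Atp6v0d1, -0.00423 to 0.136 for Atp6v1a and -0.040 to 0.133 for Tfeb. Without a change of sign they ran from -0.139 to -0.0548 for Ctsa, 0.084 to 0.188 for Lgmn, -0.0843 to -0.000814 for Gaa, 0.0146 to 0.129 for Gusb, -0.114 to -0.0472 for Man2b1, 0.0171 to 0.127 for Manba, 0.029 to 0.125 for Fuca1, 0.000163 to 0.0654 for Scarb2 and 0.00456 to 0.225 for Grn. The Ugcg difference ran from -0.154 to 0.0675. The medians ran from -0.0446 to 0.0129 for the other hydrolases, -0.0739 (without KO 431) to -0.00228 (without KO 429) for the other membrane proteins and transporters, -0.0792 to -0.0361 for the other proton pump subunits, -0.0204 to 0.0291 for delivery to the lysosome, -0.0303 to 0.0537 for the TFEB family and mTORC1 control and -0.0475 to 0.0368 for autophagy.

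Members at an unadjusted p under 0.05 numbered 0 (without WT 426) to 2 (without WT 428 or KO 431). The share of all probe sets at that p, 4.99%, is given only for the fit of all arrays. The counts without an array therefore have no background of their own setting, and no conclusion is drawn from them. Over all probe sets 2 passed on the higher and 2 on the lower side. The higher count was 5 with array weights, 4 with trend and robust variance, 1 after quantile normalization and 5 at an adjusted p under 0.1. Without WT 430 and KO 427 together, 3 passed on the higher and 5 on the lower side. Without 1 array in turn, 0 to 1 passed on the higher and 0 to 3 on the lower side. Fits without an array have fewer residual degrees of freedom, and the part of this in the counts was not tested. The labels state no pairing of KO and WT arrays, so no paired analysis was made. Signal over background could not be assessed without detection calls.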
